A study of Saccharomyces cerevisiae with 14 samples.

Results

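The ADE genes of budding yeast encode the enzymes that build purine nucleotides from small precursors, and 10 of them were looked up by standard gene name or systematic ORF name among the 6094 genes of a membrane array: ADE1, ADE2, ADE4, ADE5,7, ADE6, ADE8, ADE12, ADE13, ADE16 and ADE17. Of these, 9 were found, each at 1 array position with 2 spots, and ADE17 was not analysed here. The rule uses gene names alone.

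The series followed the response of Saccharomyces cerevisiae to low concentrations of methyl methanesulfonate (MMS), an alkylating agent that methylates DNA bases. Strain FF18984 was grown in F1, a minimal medium, or in YPD, a full medium, and sampled after 30 min or 1 h with no MMS (mock), with 0.00125% MMS (the low dose) or with 0.0125% MMS (the high dose). Strain BY4742 was sampled in YPD after 1 h, mock-treated or at the high dose. Each of the 14 conditions had 1 array, hybridised with radioactively labelled cDNA. The mock, low-dose and high-dose samples of a strain, medium and time were aliquots of 1 split culture and were hybridised in turn to the same stripped membrane, here called a membrane set. FF18984 thus gave 4 sets of 3 arrays and BY4742 gave 1 set of 2. The labels give no genotype for either strain beyond its name and leave unstated if a culture was sampled at both times.

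De novo purine synthesis assembles the purine ring stepwise on a ribose phosphate and ends in inosine monophosphate (IMP), from which separate branches lead to AMP and GMP. In budding yeast most ADE genes are known to be activated together by the transcription factors Bas1 and Pho2 when adenine is scarce, and to be low when adenine can be taken up from the medium. The same factors are known to act on genes of histidine synthesis and of the one-carbon supply, since these pathways share intermediates.

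Levels are given as log2 of the background-subtracted spot intensity relative to the array's median, after a pseudocount and quantile normalisation, so a difference of 1 is a factor of 2 in intensity. Each probe has its own strength, and levels are therefore compared between arrays and never between genes. A gene was called at or below background in an array where the mean of its spots did not exceed the local background. A call means an adjusted p under 0.05 from limma, a linear model fitted to all 6094 genes with Benjamini-Hochberg adjustment over all of them.

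The arrays did not group by their labels in every respect. Across genes, FF18984 arrays of the same time correlated with a median Pearson r of 0.80 at 30 min and 0.83 at 1 h, against 0.40 between the times. The 2 BY4742 arrays, labelled 1 h, correlated with the FF18984 30 min arrays at a median r of 0.81 and with the FF18984 1 h arrays at 0.41. The share of genes at or below background ran from 2.58% to 33.4% of an array's genes, and it was highest in the 2 FF18984 high-dose 1 h arrays, at 31.4% and 33.4%. As a check of the strain labels, 7 of 7 a-specific mating genes were higher in the arrays labelled FF18984 and 4 of 4 alpha-specific ones in those labelled BY4742, an alpha strain. The a-specific gene BAR1 hardly differed, with mean levels of 1.02 in FF18984 and 0.85 in BY4742. The 4 genes known to be deleted in BY4742 gave no such clear picture. Mean levels in FF18984 and BY4742 were 6.69 and 1.29 for URA3, 0.54 and -1.33 for LEU2, 1.04 and 0.94 for HIS3, which hardly differed, and 0.90 and 3.99 for LYS2, which went against the label.

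ADE6, ADE4, ADE5,7, ADE2, ADE1 and ADE13 were above background in 14 of 14 arrays. ADE16 was at or below background in 1 array, the FF18984 F1 1 h high-dose array. ADE8 and ADE12 were at or below background in 7 arrays each. The 2 spots of ADE8 also disagreed most, by a median of 1.90 on the log2 scale over the 14 arrays against 0.27 over all positions, while those of ADE13 and ADE6 differed by medians of 0.057 and 0.13. The log2 differences of ADE8 therefore rest on spots of which one was often below its local background.

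**Figure D1:**
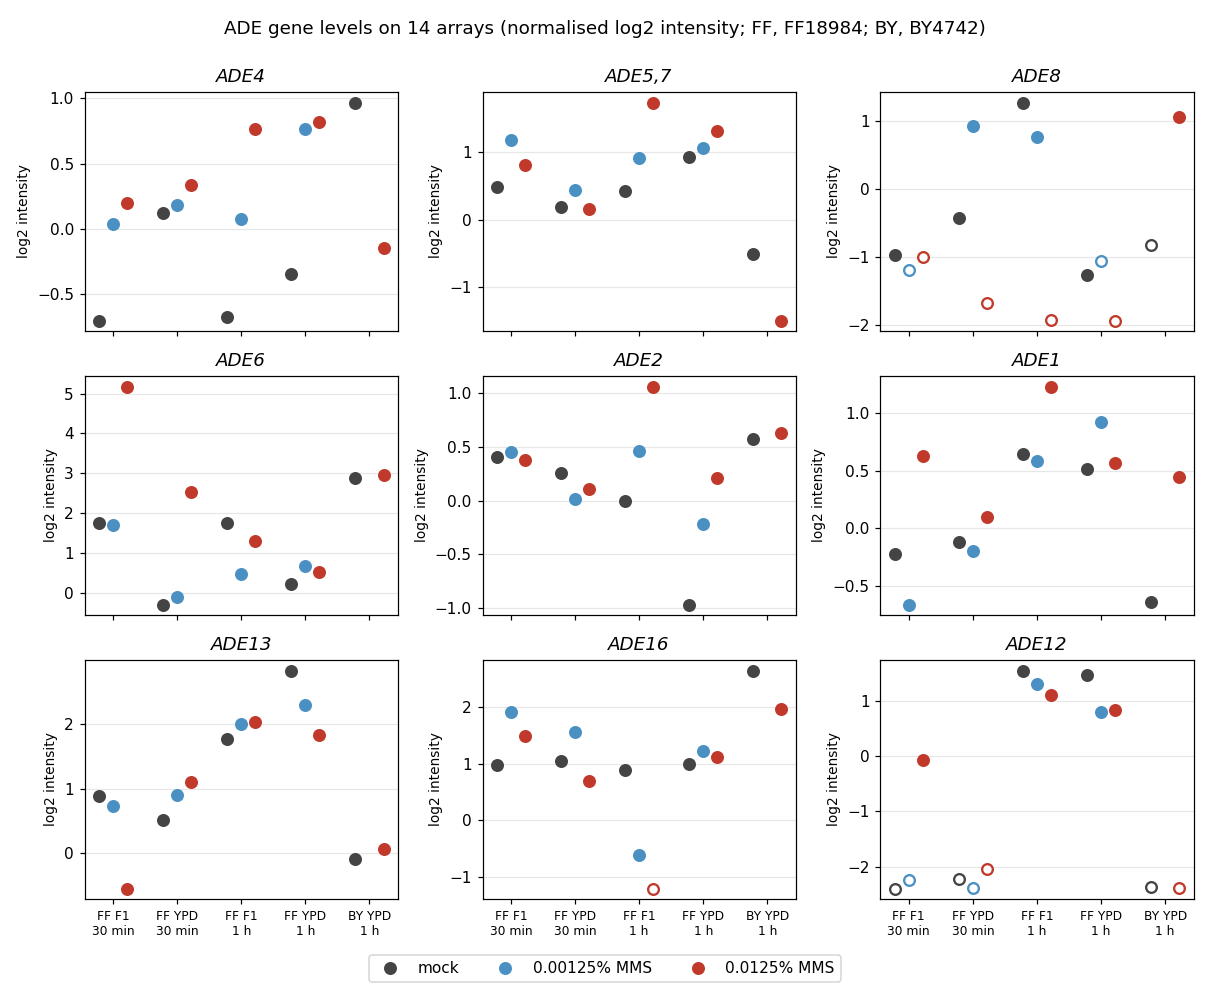
Normalised log2 intensity (y axis) of each of the 9 ADE genes on the 14 arrays, by membrane set (x axis; FF, FF18984; BY, BY4742); grey points are mock, blue the low dose and red the high dose, each point is 1 array, and open points are at or below background. ADE12 lies below 0 in every 30 min and every BY4742 array and above 0 in every FF18984 1 h array, and ADE6 stands at 5.18 in the F1 30 min high-dose array.

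The first question was how the ADE genes responded to MMS in FF18984, where each dose was measured on 4 membrane sets. No ADE gene passed the test at the high dose (0 of 9, against 5 of 6094 genes, 0.082%). The fitted high-dose difference was above 0 for 6 of the 9 genes and below 0 for 3, with a median of 0.43. The median was -0.0032 for all genes and 0.17 for 38 other genes, called the other purine genes below. That list holds genes of purine metabolism and its one-carbon and regulatory partners. It also holds genes of histidine synthesis and the pyrimidine genes SDT1 and FUR4, so not every gene in it is a purine gene. At an unadjusted p under 0.05 there were 3 ADE genes, ADE4, ADE6 and ADE8, while 13.3% of all genes reached that level. The low dose gave 0 of 9 calls, against 0 of 6094 genes (0%), and 0 ADE genes at an unadjusted p under 0.05, against 6.43% of all genes.

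ADE4 encodes the amidotransferase of the first committed step. Its log2 levels in the mock arrays were -0.70 in F1 at 30 min, -0.68 in F1 at 1 h, 0.12 in YPD at 30 min and -0.35 in YPD at 1 h. At the high dose the levels in the same order were 0.20, 0.76, 0.33 and 0.82, and at the low dose they were 0.041, 0.079, 0.18 and 0.76. The high-dose levels lay above all 4 mock levels, with no overlap, a separation in either direction that 1.99% of all genes showed. The margin was narrow, from the highest mock level of 0.12 to the lowest high-dose level of 0.20, in F1 at 30 min. The 2 spots behind that high-dose level disagreed, at 0.43 and 2.19 times the array median. ADE4 was also above its own mock array at both doses in 4 of 4 sets, which held for 2.71% of all genes. The fitted difference was 0.93 ± 0.32 (SE over 4 sets), a 1.90-fold change with a 95% interval from 0.24 to 1.62 on the log2 scale, with an unadjusted p of 0.012 and an adjusted p of 0.24 in limma. With no background correction it was 0.30, and over the 14 alternatives it ran from 0.30 to 1.30 without passing. At the low dose it was 0.67 ± 0.32, with an adjusted p of 0.77 in limma. The mock and high-dose arrays were thus apart by a narrow margin, and the difference did not pass after adjustment over all genes.

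ADE5,7 encodes a protein with separate synthetase activities for an early and a later step. Its low-dose array was above the mock array in 4 of 4 sets, by 0.14 to 0.70, which 8.3% of all genes showed for that dose. At the high dose it was above mock in 3 of 4 sets, by a fitted 0.50 ± 0.31 (adjusted p = 0.49 in limma). Its mock levels ran from 0.19 to 0.93 and its high-dose levels from 0.16 to 1.74, so the groups overlapped.

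ADE8 encodes the first of the formyltransferases of the pathway, which uses a folate one-carbon unit. Its mock levels were -0.97 in F1 at 30 min, 1.28 in F1 at 1 h, -0.43 in YPD at 30 min and -1.26 in YPD at 1 h. The high-dose levels in the same order were -1.003, -1.93, -1.69 and -1.94, and all 4 high-dose arrays were at or below background. The high-dose array was the lower in 4 of 4 sets, as for 9.06% of all genes, but the level in F1 at 30 min differed from its mock by only -0.035 and the groups overlapped. The fitted difference was -1.29 ± 0.50 with an adjusted p of 0.29 in limma. With the lowest level above background in place of any lower high-dose level, the ratio of group means, mock over high dose, was 2.06-fold. This ratio is a point value that depends on the pseudocount and is not a lower limit. The interval of the fitted difference ran from -2.37 to -0.21, and with 4 times the pseudocount the fitted difference was -0.79. The ratio rests largely on the F1 1 h set, where ADE8 differed by -3.20: without that set the fitted difference was -0.66 (adjusted p = 0.67), and with no background correction it was 0.026 (adjusted p = 0.96).

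ADE6 encodes the amidotransferase that makes formylglycinamidine ribotide. Its mock levels were 1.74 in F1 at 30 min, 1.75 in F1 at 1 h, -0.30 in YPD at 30 min and 0.20 in YPD at 1 h. The high-dose levels in the same order were 5.18, 1.30, 2.54 and 0.51, and the low-dose levels were 1.70, 0.46, -0.12 and 0.67. Both 30 min high-dose arrays stood above every other FF18984 level of ADE6 in their own medium, while the 1 h high-dose levels lay within the range of the mock arrays. Over the 4 sets the fitted high-dose difference was 1.53 ± 0.55 (adjusted p = 0.26 in limma), and against the low dose it was 1.70 ± 0.55 (adjusted p = 0.78 in limma). Between the doses 0 of 9 ADE genes passed, against 2 of 6094 genes (0.0328%), and ADE8 was at -1.50 ± 0.50 (adjusted p = 0.78 in limma). The other 7 ADE genes lay between -0.50 and 0.58.

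ADE2 and ADE1 encode the carboxylase and the succinocarboxamide synthetase of the next steps, and loss of either is known to turn colonies red. ADE2 differed from mock at the high dose by -0.15 to 1.18 over the sets, with a fitted 0.52 ± 0.33 (adjusted p = 0.51 in limma), and it was above mock in 2 of 4. ADE1 was above mock in 4 of 4 sets, by 0.049 to 0.85, with a fitted 0.43 ± 0.32 (adjusted p = 0.59 in limma), and 8.25% of all genes were above mock in 4 of 4 sets. The mock and high-dose arrays overlapped for both genes.

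The last enzymes of the route gave no call either. ADE13, the adenylosuccinate lyase that acts both on the way to IMP and in the AMP branch, differed at the high dose by a fitted -0.40 ± 0.34 (adjusted p = 0.64 in limma). ADE16, one of the paired enzymes that close the purine ring, differed by -0.46 ± 0.40 (adjusted p = 0.63 in limma), and its 4 mock levels lay within 0.89 to 1.06 while its high-dose levels ran from -1.20 to 1.48. ADE12, the adenylosuccinate synthetase that opens the AMP branch, differed by 0.36 ± 0.45 (adjusted p = 0.75 in limma), and its sets ran from -0.64 to 2.33. Fitted low-dose differences of ADE8, ADE6, ADE2, ADE1, ADE13, ADE16 and ADE12 lay between -0.23 and 0.25, with adjusted p-values of 0.90 or more in limma.

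**Figure D2:**
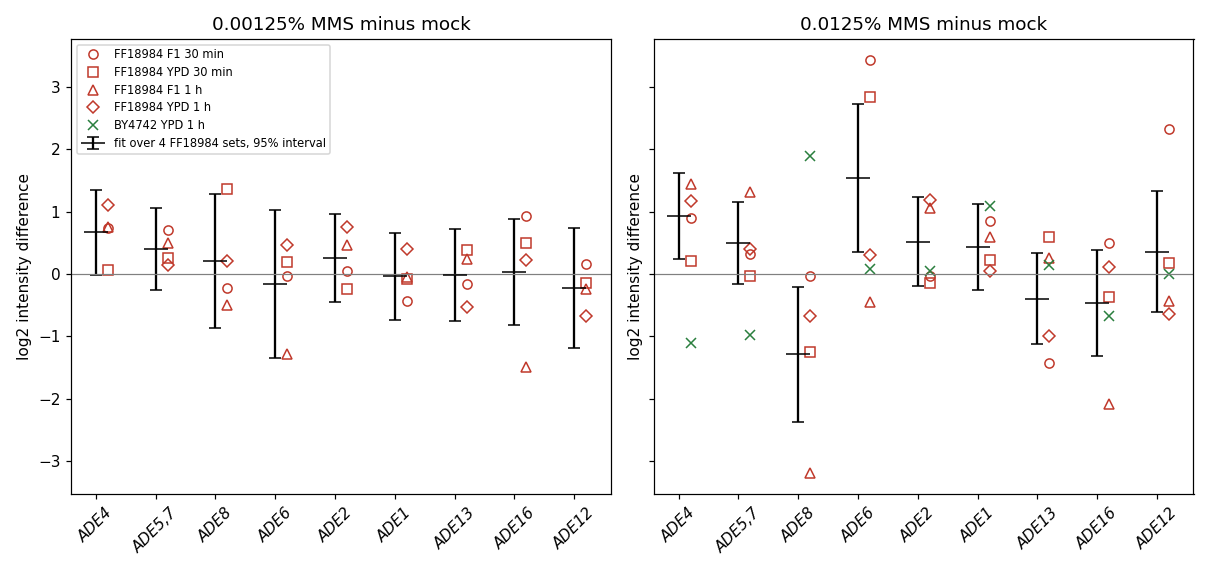
Log2 intensity difference from mock (y axis) for each ADE gene (x axis) at the low dose (left) and the high dose (right); black bars are the limma estimate over the 4 FF18984 sets with its 95% interval, red symbols are the single sets and green crosses the BY4742 pair. The ADE4 high-dose differences are above 0 in 4 of 4 FF18984 sets and the BY4742 pair is at -1.11, while ADE6 has 2 values near 3 and 2 near 0.

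Of the 38 other purine genes, 0 passed at the high dose. The smallest p-values belonged to IMD3, an IMP dehydrogenase of the GMP branch, at 1.33 ± 0.42 (adjusted p = 0.22 in limma), to YNK1, the nucleoside diphosphate kinase, at -0.95 ± 0.34 (0.25), and to GCV3, a subunit of glycine cleavage, at 1.24 ± 0.45 (0.26). The regulators gave -0.11 ± 0.39 for BAS1 and 0.28 ± 0.35 for PHO2, with adjusted p-values of 0.93 and 0.75 in limma. ADE3, the folate enzyme that supplies both formyl groups of the purine ring, differed by -0.095 ± 0.33, SHM2, a serine hydroxymethyltransferase, by 0.59 ± 0.30, and MTD1, a methylene-tetrahydrofolate dehydrogenase, by -0.42 ± 0.56, none of which passed. IMD2, the inducible IMP dehydrogenase, differed by -0.56 ± 0.62 (adjusted p = 0.72 in limma), and IMD4 was not analysed here. The low dose gave 0 of 38 calls, with the smallest p-values for HIS7 at -0.85 ± 0.33, GUA1 at 0.70 ± 0.31 and MIS1 at 0.80 ± 0.43. Between the doses 0 of 38 passed, and the smallest p-values belonged to GUD1 at 0.99 ± 0.42, IMD3 at 0.88 ± 0.42 and FUR4 at -0.99 ± 0.47.

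The next question was whether the high-dose difference was the same at both times. No ADE gene passed the interaction test (0 of 9, against 14 of 6094 genes, 0.23%), and 2 of 9 reached an unadjusted p under 0.05, against 17.1% of all genes. ADE6 came nearest. Its high-dose array exceeded mock by 3.44 in F1 and 2.84 in YPD at 30 min, and differed by -0.46 in F1 and 0.31 in YPD at 1 h. The difference was thus larger at 30 min in both media, and the interaction (1 h minus 30 min) was -3.21 ± 0.64 with an unadjusted p of 2.1e-04 and an adjusted p of 0.064 in limma.

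This interaction lay close to the threshold and crossed it under other settings. It passed with bright genes only (adjusted p = 0.045 in limma) and without the YPD 30 min set (-3.51, adjusted p = 0.047), and its adjusted p ran up to 0.56 over the other alternatives. With the 30 min sets alone, ADE6 passed in limma against mock (3.14, adjusted p = 0.018) and against the low dose (3.06, adjusted p = 0.031), where 32 and 15 of 6094 genes passed. That fit rests on only 6 arrays from 2 membrane sets. With the 1 h sets alone the difference from mock was -0.072 (adjusted p = 0.93).

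The F1 30 min high-dose value of ADE6 was carried by both of its spots. Their background-subtracted intensities were 337920 and 351160, which are 44.9 and 46.6 times the median of that array, and each spot's total was over 7 times its local background. The gene ranked 38 from the top of 6094 genes in that array. The 3 other positions with the same field and well read between 5240 and 13974, against an array median of 6375, and the spots around ADE6 were not otherwise examined. The YPD 30 min high-dose array had a median signal of 2041760, against 42.4 to 8776 in the other arrays. It also followed the deposited series table least closely (Spearman's rho 0.946). In that array the spots of ADE6 stood at 2.96 and 3.07 times the array median. They stood at 0.76 and 0.61 in the mock array and 0.94 and 0.80 in the low-dose array of the same membrane. The spot totals gave less contrast there, at only 1.38 and 1.40 times local background at the high dose. In the same order the totals were 1.67 and 1.52 times local background in the mock array and 1.62 and 1.58 in the low-dose array.

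ADE12 was the other gene with an unadjusted p under 0.05 in this interaction, at -1.80 ± 0.78 (adjusted p = 0.26 in limma). It passed with no background correction (-2.08, adjusted p = 0.020). Its difference rests on the F1 30 min set, where mock and low-dose arrays were at or below background, at -2.40 and -2.24, and the high-dose array stood at -0.069 with spots of 0.33 and 1.96 times the array median. Without that set the interaction was -0.72 (adjusted p = 0.68). ADE2 had a larger high-dose difference at 1 h than at 30 min in both media, by a fitted 1.21 ± 0.60 (adjusted p = 0.31 in limma). ADE8 and ADE16 had interactions of -1.29 and -1.06, ADE4 and ADE5,7 of 0.75 and 0.71, and ADE1 and ADE13 of -0.21 and 0.052, with adjusted p-values of 0.47 or more. Of the 38 other purine genes 0 passed, with the smallest p-values for MTD1 at -2.79 ± 0.79 (adjusted p = 0.12), SHM1, the mitochondrial serine hydroxymethyltransferase, at 2.50 ± 0.73 (0.13) and GUD1, the guanine deaminase, at -1.74 ± 0.58 (0.16).

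The high-dose difference was also compared between the media. No ADE gene passed (0 of 9, against 0 of 6094 genes, 0%) and 0 reached an unadjusted p under 0.05, against 4.15% of all genes. The ADE gene with the largest fitted difference was ADE12, at -1.18 ± 0.93 (YPD minus F1), and ADE16 followed at 0.67 ± 0.84. The other 7 lay between -0.64 and 0.65. The intervals were wide, with a median SE of 0.74 on the log2 scale over the ADE genes, and the ADE12 interval ran from -3.19 to 0.84, so differences of severalfold between the media could have gone undetected. The other purine genes gave 0 of 38 calls, with the smallest p-values for AMD1, the AMP deaminase, at 1.65 ± 0.74, PRS2 at -3.23 ± 1.51 and ADO1, the adenosine kinase, at 1.15 ± 0.70.

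The sampling times were compared next. In FF18984, ADE12, ADE13 and ADE1 were higher at 1 h than at 30 min (3 of 9 genes, none lower), whereas 51.5% of all genes passed in either direction and 26.9% were higher. Against these shares the count shows nothing particular to the ADE genes. Each time was measured on 2 membranes and no membrane held both times, so time and membrane cannot be told apart beyond the spread between those membranes. Since the BY4742 arrays labelled 1 h went with the FF18984 30 min arrays, a doubt over the time labels or the membrane layout bears on every value of this comparison, and it was not tested. The fit draws most of its degrees of freedom from arrays within sets, although only 4 sets carry the comparison.

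ADE12 stood at -2.40, -2.24 and -0.069 in F1 at 30 min (mock, low and high dose) and at 1.55, 1.32 and 1.12 in F1 at 1 h. In YPD it stood at -2.23, -2.38 and -2.05 at 30 min and at 1.48, 0.80 and 0.83 at 1 h. All 6 levels at 1 h lay above all 6 at 30 min, where only 1 array was above background. The fitted difference was 3.08 ± 0.41 on the log2 scale, with an adjusted p of 1.5e-05 in limma. Its size depends on how values near background are treated, from 1.67 with no background correction to 4.51 with a pseudocount 4 times smaller, and it passed in 8 of the 8 alternatives that gave it a test.

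ADE13 had a lowest, median and highest level of -0.55, 0.80 and 1.10 in the 6 arrays at 30 min, and of 1.76, 2.01 and 2.83 in the 6 arrays at 1 h. The times did not overlap, a separation in either direction that 28.4% of all genes showed and that 2 of the 9 ADE genes shared, ADE13 and ADE12. The fitted difference was 1.53 ± 0.32, or 2.88-fold, with an adjusted p of 8.6e-04 in limma.

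ADE1 had a lowest, median and highest level of -0.66, -0.16 and 0.62 at 30 min, and of 0.52, 0.61 and 1.23 at 1 h. The times overlapped through the F1 30 min high-dose array, and the fitted difference was 0.82 ± 0.30, or 1.77-fold (adjusted p = 0.033 in limma). The ADE1 call was lost with no background correction (0.40, adjusted p = 0.11) and when each set was reduced to its mean (adjusted p = 0.20), an alternative chosen after seeing the data, while ADE12 and ADE13 passed in each setting that gave them a test.

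The other 6 ADE genes did not pass between the times. Their fitted differences, 1 h minus 30 min, were -0.97 ± 0.53 for ADE6, -0.87 ± 0.43 for ADE16, 0.52 ± 0.30 for ADE5,7, 0.20 ± 0.30 for ADE4, -0.18 ± 0.32 for ADE2 and 0.036 ± 0.52 for ADE8. ADE5,7 passed under median centring (0.86, adjusted p = 0.036 in limma), cyclic loess (0.87, adjusted p = 0.023) and no background correction (0.82, adjusted p = 0.014). ADE16 had its 2 lowest levels, -0.60 and -1.20, in the F1 1 h low-dose and high-dose arrays, and its other 4 levels at 1 h, from 0.89 to 1.22, lay among those at 30 min, from 0.69 to 1.91. The 2 spots behind the low-dose level disagreed, at -0.27 and 1.73 times the array median, and the high-dose level was at or below background.

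Of the 38 other purine genes, 19 passed between the times, 10 higher and 9 lower at 1 h, a share close to the 51.5% of all genes and thus nothing particular to the list. MEU1, the methylthioadenosine phosphorylase of purine salvage, was higher by 4.14 ± 0.31 (adjusted p = 4.3e-08 in limma), and ADE3 by 2.98 ± 0.34 (2.7e-06). GUD1 was lower by a difference of -5.88 ± 0.45 (6.2e-08), MIS1, the mitochondrial counterpart of ADE3, of -4.51 ± 0.39 (2.0e-07), BAS1 of -3.90 ± 0.43 (2.4e-06) and MTD1 of -1.68 ± 0.55 (0.018). PHO2, SHM2, IMD2 and IMD3 differed by -0.14, -0.29, -0.040 and -0.36 and did not pass. The median difference of the ADE genes was 0.20, against 0.35 for the other purine genes and 0.11 for all genes.

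**Figure D3:**
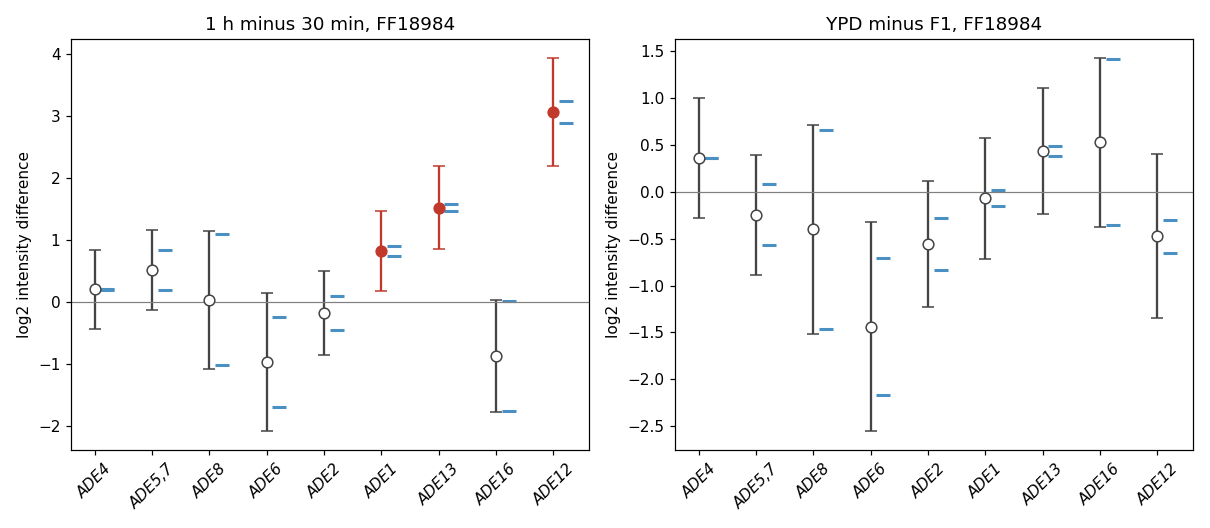
Log2 intensity difference (y axis) of each ADE gene (x axis) between 1 h and 30 min (left) and between YPD and F1 (right) in FF18984; circles are the limma estimate with its 95% interval, filled red where the adjusted p was under 0.05, and blue ticks are the same difference in each medium (left) or at each time (right). ADE12, ADE13 and ADE1 are filled on the left, and no ADE gene is filled on the right.

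The comparison of YPD with F1 asked whether the purine genes differed between a full and a minimal medium. No ADE gene passed (0 of 9, against 320 of 6094 genes, 5.25%), and 1 of 9, ADE6, reached an unadjusted p under 0.05, against 20.4% of all genes. The median difference, YPD minus F1, was -0.24 for the ADE genes, -0.031 for the other purine genes and -0.017 for all genes. Each medium was measured on 2 membranes, so medium and membrane cannot be told apart beyond the spread between those membranes.

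ADE6 had a lowest, median and highest level of 0.46, 1.72 and 5.18 in F1 and of -0.30, 0.36 and 2.54 in YPD. The media overlapped for ADE6 and for the other 8 ADE genes, whereas 2.46% of all genes showed no overlap. The fitted difference was -1.44 ± 0.53 (adjusted p = 0.13 in limma). At 30 min the F1 array exceeded the YPD array at each dose, and the mean difference over the doses was -2.17 (YPD minus F1). At 1 h the mean difference was -0.71. There the F1 array was the higher in mock and at the high dose, while at the low dose YPD was the higher, at 0.67 against 0.46. At a single time each medium is 1 culture on 1 membrane, so these are values with no replicated test.

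ADE2 differed between YPD and F1 by -0.83 at 1 h and by -0.28 at 30 min, with a fitted -0.56 ± 0.32 that did not pass (adjusted p = 0.35 in limma). The remaining ADE genes had fitted differences of 0.53 ± 0.43 for ADE16, -0.47 ± 0.41 for ADE12, 0.44 ± 0.32 for ADE13, -0.40 ± 0.52 for ADE8, 0.36 ± 0.30 for ADE4, -0.24 ± 0.30 for ADE5,7 and -0.068 ± 0.30 for ADE1. For ADE4, ADE5,7 and ADE1 the 95% intervals reached from -0.28 to 1.002, from -0.88 to 0.40 and from -0.71 to 0.58 on the log2 scale.

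Among the other purine genes, 2 of 38 passed between the media, a share close to the 5.25% of all genes and thus nothing particular to the list. HIS4, an enzyme of histidine synthesis, was lower in YPD, at -2.08 ± 0.34 (adjusted p = 0.0025 in limma), and SDT1, a pyrimidine nucleotidase, was higher, at 1.36 ± 0.31 (adjusted p = 0.015). SHM2 at -0.98 ± 0.30 (adjusted p = 0.068) and IMD2 at 1.83 ± 0.58 (adjusted p = 0.083) lay near the threshold without passing. ADE3, MTD1, IMD3, BAS1 and PHO2 lay between -0.30 and 0.36, with adjusted p-values of 0.65 or more.

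**Figure D4:**
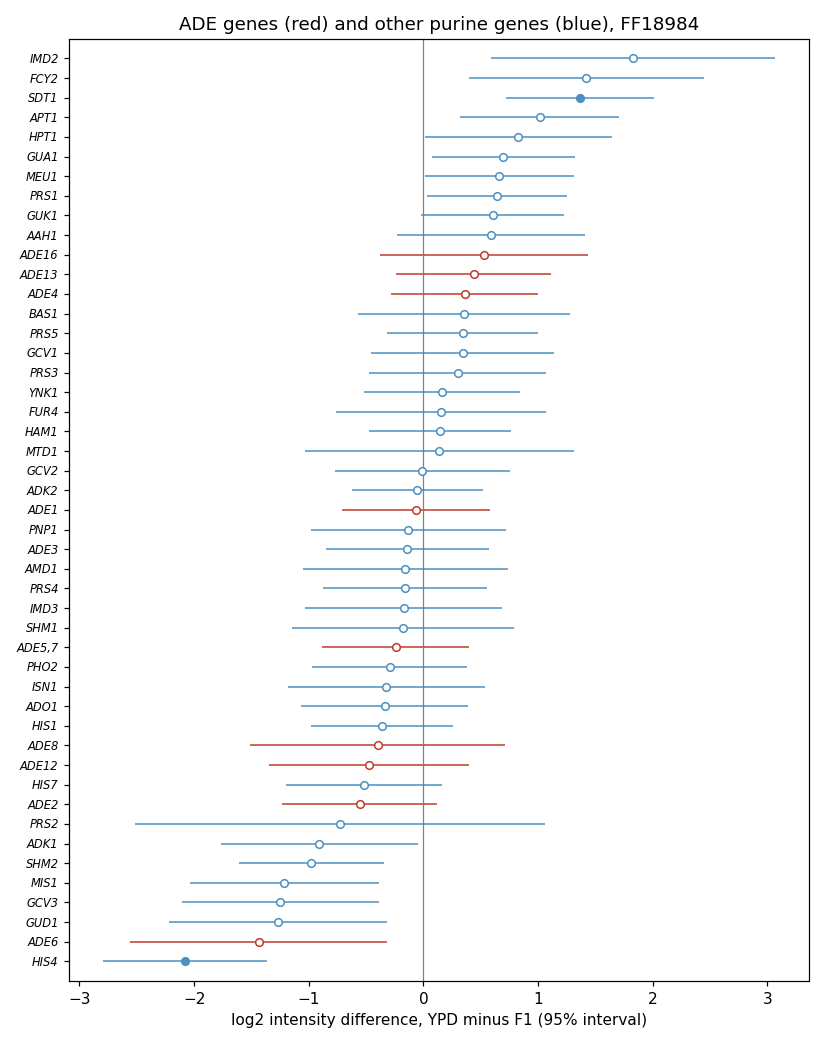
Log2 intensity difference, YPD minus F1 (x axis, limma estimate with its 95% interval), of the 9 ADE genes (red) and 38 other purine genes (blue) in FF18984, in order of the difference (y axis, gene names); filled points had an adjusted p under 0.05. HIS4 at -2.08 and SDT1 at 1.36 are the 2 filled points, and ADE6 at -1.44 is the lowest ADE gene.

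In BY4742 the high dose could be set beside mock in YPD at 1 h in 1 pair of arrays, with no replicate and no test. ADE8 stood at -0.83 in the mock array, at or below background, and at 1.06 at the high dose, a difference of 1.89 that turned to -0.31 with no background correction. ADE1 went from -0.64 to 0.44, a difference of 1.08, and ADE4 from 0.97 to -0.14, a difference of -1.11. Differences above 1 were seen in 5.15% of all genes and below -1 in 3.87%. The other ADE genes differed by -0.98 (ADE5,7), -0.67 (ADE16), 0.15 (ADE13), 0.075 (ADE6), 0.050 (ADE2) and -0.0090 (ADE12), and the median over the 9 genes was 0.050.

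ADE4 and ADE8 thus differed from mock in BY4742 in the direction opposite to 4 of 4 FF18984 sets, a pattern that 8.2% of all genes showed and that was not tested. For ADE8 the pattern rests on levels at or below background, in the BY4742 mock array and in all 4 FF18984 high-dose arrays. In the matching FF18984 pair, YPD at 1 h, ADE4 was 1.17 above mock and ADE8 was -0.68 from mock. The ADE4 spots of the BY4742 arrays agreed closely, at intensities of 122 and 109 in the mock array and 64.3 and 69.0 at the high dose. For ADE8 the 2 mock spots read 82.1 and -190.0, and the high-dose spots 178 and 166.

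Levels of the strains were set side by side in the mock arrays of YPD at 1 h, where strain and membrane cannot be told apart. ADE12 was at -2.37 in BY4742, at or below background, and at 1.48 in FF18984, at least 13.1-fold higher in FF18984 with the pseudocount used. ADE13 stood at -0.086 against 2.83, and ADE5,7 at -0.51 against 0.93. ADE6 was the higher in BY4742, at 2.88 against 0.20, as were ADE16 at 2.64 against 1.002, ADE2 at 0.58 against -0.97 and ADE4 at 0.97 against -0.35. In the high-dose arrays ADE4 went the other way, at -0.14 in BY4742 against 0.82 in FF18984. ADE2 differed less there, at 0.62 against 0.21, and ADE12, ADE13, ADE5,7, ADE6 and ADE16 kept their direction. ADE8 stood at 1.06 in BY4742 against -1.94 in FF18984, the latter at or below background. The BY4742 mock levels of ADE12 and ADE13 lay near those of FF18984 in YPD at 30 min, -2.23 and 0.52, rather than at 1 h, as the correlation over all genes did. Those of ADE1, ADE2, ADE4 and ADE5,7 were also nearer the 30 min level. ADE6 went the other way, 3.18 above its 30 min level and 2.68 above its 1 h level, and ADE8 and ADE16 were about as far from both. Whether the labelled time or the membrane bears on these levels was not tested.

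Within membrane sets, the ADE genes did not move as a block over the 14 arrays. Each gene's mean within a set was subtracted first, which also removes differences of medium, time and strain. Pearson's r then had a median of -0.088 over the 36 pairs of ADE genes and was above 0 in 13 pairs. It ranged from -0.67 (ADE5,7 with ADE8) to 0.85 (ADE4 with ADE5,7). ADE2 followed ADE4 at 0.74 and ADE5,7 at 0.59. The pairs include ADE8 and ADE12, each at or below background in 7 arrays, and r over pairs of all genes was not computed. ADE6 and ADE12 followed each other at 0.76, both being high in the F1 30 min high-dose array. Against the mean of the other members, ADE13 had the lowest r, -0.79, and ADE12 the highest, 0.58. The arrays of a set share a culture and a membrane, so these values are descriptions.

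Among 2569 genes above background in all 14 arrays, the 8 whose within-set pattern was most like the mean of the ADE genes were SPO14, TDA11, HFI1, POL32, SPC97, SLX4, ESP1 and ATG27, with r from 0.90 to 0.94 over 14 arrays. This likeness leaned on ADE6: with ADE6 left out of the mean, r fell to between 0.57 and 0.78 for the first 7 of these genes, and was 0.90 for ATG27.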

How the data were processed

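The deposited spot files give, per the file headers, a spot's integrated intensity and its local background, for 6912 positions with 2 spots each. Of these, 6102 positions carry an ORF name, for 6094 genes, of which 5567 had a symbol in the RefSeq gene table. Files were joined by spot index. How the authors made the intensity values beyond the scanner output is not given in the sources used here, and the genome build is not named. The deposited series table of intensity values followed the spot files across genes (Spearman's rho 0.946 to 0.998 per array) and served as an alternative.

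From these, background was subtracted, each array was divided by its median positive value, values below 0 were set to 0, a pseudocount of 0.187 (the 10th percentile of positive values) was added, log2 was taken, spots were averaged and arrays were quantile normalised. No counts exist, so the number of arrays limits the precision. The pseudocount shrinks fold changes of dim genes. Their differences also depend on the background correction, as for ADE8 at the high dose, with -1.29 on this scale and 0.026 with no background correction.

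Tests used limma 3.58.1 (trend) with statmod 1.5.0 in R 4.3.3, and Python 3.11.15 for reading and plotting. Dose was fitted with membrane set as a fixed block on 12 FF18984 arrays (6 residual degrees of freedom, 4 for interactions), and medium and time with set as a random block (correlation 0.074, 7 degrees of freedom). Intervals are 95%. The labels give 1 array a condition and aliquots of a split culture, so p-values for dose measure the spread between these membrane sets. Those for medium and time rest mostly on the spread of arrays within the 4 sets and may be too small. The members and lists were chosen with earlier results of these data known. All 10 members are reported, with the 3 other purine genes of smallest p per test, ADE3, BAS1, PHO2, SHM2, MTD1 and the IMD genes, and 8 genes by likeness. SDs of single conditions do not exist. Alternatives were the scaling, background correction, pseudocount, series table, a filter on dim genes, single times and sets left out. Only the fit of the high dose against mock was tried on simulated data, with independent normal errors. The interaction, medium and time fits were not. Promoter motifs were not analysed.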

Additional observations from a re-analysis of the deposited data

Results flagged for a closer look

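In BY4742 the high-dose minus mock difference of ADE4 was -1.11 on the log2 scale, against 0.21 to 1.44 in the 4 FF18984 sets, so the strains lay on opposite sides of mock. For ADE8 the BY4742 difference was 1.89, against -3.20 to -0.035 in the 4 FF18984 sets. BY4742 has 1 pair of arrays, and neither difference between the strains was tested. Of all genes, 8.2% had all 4 FF18984 sets on one side of mock and BY4742 on the other. For ADE8 the BY4742 mock array and the 4 FF18984 high-dose arrays were at or below background. The ADE8 difference turned to -0.31 under one alternative, no background correction, while that of ADE4 kept its direction under all 7 alternatives, from -1.28 to -0.55.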

How the results depend on the processing

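Of the 641 values of single ADE genes under the alternatives, 69 changed sign, 46 of them with a test and 23 without. Of the tested values, 9 came to pass and 2 ceased to. Of the calls between the times those of ADE12 and ADE13 passed in each alternative that gave them a test. The median log2 difference over the ADE genes at the high dose was 0.65 with median centring, 0.096 with no background correction, 0.15 with the 30 min sets alone and -0.072 with the 1 h sets alone; at the low dose it was 0.20 with median centring and -0.15 with the 1 h sets alone. For the high dose by time it was 0.47 with median centring and 0.38 with bright genes only, against -0.21 in the main fit. For the high dose by medium it was -0.37 with median centring, -0.39 with cyclic loess and -0.43 with the deposited series table, against -0.0012 in the main fit. For YPD against F1 it was -0.0081 with no background correction, -0.063 with the series table and 0.043 with the mock arrays alone. For 1 h against 30 min it was 0.42 with median centring, 0.62 with cyclic loess, 0.40 with no background correction, 0.13 and 0.24 with a pseudocount 4 times larger and 4 times smaller, 0.17 with the series table and 0.36 with bright genes only. Under cyclic loess the BY4742 pair gave -0.15 and BY4742 against FF18984 gave -0.34. Counts of ADE genes that passed rose to 1 for the high dose by time with no background correction and with bright genes only, for the high dose against mock and against the low dose with the 30 min sets alone, and for YPD against F1 with the 30 min arrays alone, where each medium is 1 culture on 1 membrane and the count has no replication behind it.

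Leaving out 1 membrane set at a time, the ADE medians ran from 0.29 to 0.54 (high dose), -0.12 to 0.21 (low dose), 0.12 to 0.30 (high against low), -0.62 to 0.055 (high dose by time), -0.63 to -0.42 (high dose by medium), -0.28 to -0.15 (medium) and 0.20 to 0.21 (time), and the number passed from 0 to 1 for the high dose by time and 0 elsewhere; medium and time then have no test. Over all genes the calls ran from 0 to 32 at the high dose, 0 to 15 for high against low, 0 to 447 for high dose by time, 0 to 4 for high dose by medium and 136 to 495 between the media (leaving out the fits to a single time), and were 1475 between the times with bright genes only.

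None of the tested values that changed sign had passed. Apart from sets left out they were, with median centring, 0.062 for ADE1 and 0.26 for ADE13 (low dose) and 0.032 for ADE2 (time); with cyclic loess, -0.048 for ADE16 (low dose) and 0.22 for ADE2 (time). With no background correction they were 0.026 for ADE8, -0.21 for ADE1 and 0.17 for ADE16 (high dose), -0.22 for ADE8 (low dose), 0.25 for ADE8 (high against low), 0.013 for ADE5,7 (medium), and -0.24 for ADE4, -0.26 for ADE8 and 0.50 for ADE16 (time). With the larger pseudocount ADE8 gave -0.030 (time), and with the smaller one ADE16 gave -0.13 (low dose). The series table gave ADE8 -0.40 (low dose), 0.031 (medium) and -0.15 (time). The 30 min arrays alone gave -0.091 for ADE2 and 0.063 for ADE16 (high dose), 0.075 for ADE6, -0.10 for ADE2, 0.12 for ADE13 and 0.0041 for ADE12 (low dose), and 0.66 for ADE8, 0.016 for ADE1 and -0.36 for ADE16 (medium). The 1 h arrays alone gave -0.072 for ADE6 and -0.54 for ADE12 (high dose), -0.15 for ADE8, 0.18 for ADE1 and -0.64 for ADE16 (low dose), and 0.081 for ADE5,7 (medium). The cause of these changes was not tested.

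Tested values whose sign turned with 1 set left out ran, at the high dose, from -0.78 to 0.078 for ADE16 (positive without the F1 1 h set) and from -0.30 to 0.69 for ADE12 (negative without the F1 30 min set). At the low dose they ran from -0.17 to 0.45 for ADE8, -0.38 to 0.21 for ADE6, -0.19 to 0.090 for ADE1, -0.15 to 0.16 for ADE13 and -0.26 to 0.55 for ADE16. For high dose by medium they ran from -0.63 to 1.96 for ADE16 and from -2.56 to 0.21 for ADE12. ADE6 gave 0.90 to 2.20 at the high dose. The untested values that turned ran, between the times, from -1.02 to 1.09 for ADE8, -1.76 to 0.012 for ADE16 and -0.45 to 0.097 for ADE2, and between the media from -1.46 to 0.66 for ADE8, -0.36 to 1.41 for ADE16, -0.57 to 0.081 for ADE5,7 and -0.15 to 0.016 for ADE1. Mock arrays alone gave 0.10 for ADE5,7 and 0.043 for ADE12 (medium). In the BY4742 pair ADE6 gave -0.27 and ADE2 -0.011 with median centring, ADE6 -0.15 and ADE2 -7.2e-04 with cyclic loess, and ADE8 -0.31, ADE13 -0.049 and ADE12 0.18 with no background correction. Median centring moved the median of all genes to 0.41 for high dose by time, -0.12 for high dose by medium and 0.33 for 1 h against 30 min, against 0.022, 0.024 and 0.11 as reported. ADE8 and ADE12, at or below background in 7 of 14 arrays each, are limited by signal over background. The set means were chosen as an alternative after seeing the data. Dose was paired within membrane sets in the reported fit; with set as a random block no ADE call changed.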
